A study of Mus musculus with 48 samples.

Results

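The effect of 1 copy of a knock-in allele of the IGF-1 receptor was described across all genes in the livers of female mice. IGF-1R R1096C is a change of 1 arginine to cysteine in the kinase insert domain of the receptor, made by CRISPR-Cas9 editing and carried in the germ line, so that all tissues of a mutant animal hold it. The comparison takes 11 of the 48 libraries of the study, chosen by their labels for tissue, sex and genotype. It holds 6 livers of WT females and 5 livers of females heterozygous for IGF-1R R1096C (Het). All 11 animals were C57BL/6J mice of 4 months, of the N2F1 generation, from an intercross that followed 2 backcrosses of the founders, and no group carried another allele or a treatment. The genes compared are the 18241 of 57010 that reached 10 reads in 20% or more of the 23 liver libraries. The labels name no separate litters, days or extractions, so each liver was taken as 1 replicate, and p values measure the spread between these samples. The library number of WT replicate 3 also stands on a male Het muscle library, so 1 of these 2 labels may name another animal. Across the 6 WT livers Xist, the RNA that silences 1 X chromosome in females, was at 727 ± 75.9 CPM (SD) and the Y-linked Ddx3y at 0.198 ± 0.332 CPM. A count per gene holds reads of both alleles, and the genotype of a library could not be checked from them.

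The IGF-1 receptor is a tyrosine kinase that binds the growth factors IGF-1 and IGF-2 and passes the signal through insulin receptor substrates to the PI3K-Akt-FoxO, mTORC1 and Ras-ERK branches. Adult hepatocytes, the main cells of liver, make most of the circulating IGF-1 under the control of growth hormone but carry few receptors for it, and respond mainly to insulin and glucagon. The liver also holds the main stores and pathways for glucose, fatty acids, sterols, bile acids, amino acids and plasma proteins, and these groups of genes order the account that follows.

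The edited arginine is codon 1096 of Igf1r, in exon 17 of 1369 coding codons, at chr7:67857607-67857609 of GRCm39 on the plus strand. The reference stretch around it, read from the genome at chr7:67857577-67857621 to show where the animals of both groups differ, has the codon in capitals.
Igf1r codon 1096, WT: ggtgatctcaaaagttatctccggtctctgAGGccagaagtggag

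The Het livers differed from the WT livers as whole libraries before any single gene was compared. Reads on mitochondrially encoded genes were 2.41%, 4.46% and 4.94% of the library at the lowest, median and highest of the 6 WT livers. In Het replicates 1 to 5 they were 7.31%, 12.5%, 16.6%, 14.3% and 14.8%. The groups did not overlap, and their means were 4.18% ± 0.911 (SD, n = 6) and 13.1% ± 3.57 (SD, n = 5) (exact permutation test, two-sided, p = 0.00216, the smallest possible for 6 against 5 libraries; Benjamini-Hochberg adjusted over 31 library measures, 0.00746). Genes with at least 1 read numbered 18010 to 21346 in WT livers and 15372 to 16538 in Het livers (exact permutation test, p = 0.00433, adjusted p = 0.00895). Thinned to the 26290519 reads of the smallest library, the ranges were 17899 to 21003 and 15372 to 16496, and the groups still did not overlap.

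Between 1 and 9 reads were counted on 887 to 5114 genes in WT livers and on 455 to 530 genes in Het livers. WT replicate 6 had the 887, and the other WT livers had 3384 or more. Genes with at least 10 reads numbered 16075 to 17123 in WT and 14911 to 16008 in Het livers, without overlap (exact permutation test, p = 0.00216). In thinned libraries they overlapped, at 15010 to 15812 in WT and 14911 to 15598 in Het livers (exact permutation test, p = 0.861). Of the counts from 1 to 100, 75.2% to 83.8% were even numbers in WT livers and 85.3% to 86.8% in Het livers, without overlap. Total reads overlapped, at 34024056 to 56312866 in WT and 26290519 to 51564824 in Het livers (p = 0.433 from the same exact test). The share of reads on long noncoding RNA was 0.654% to 0.873% in WT and 0.945% to 1.87% in Het livers, and that on pseudogenes 0.156% to 0.231% and 0.261% to 0.400%, both without overlap (adjusted p = 0.00746 for each, exact permutation test). In the livers of males of the same study, and in female gastrocnemius muscle, WT and Het libraries overlapped on the mitochondrial share, on genes with at least 1 read, on genes with 1 to 9 reads and on the share of even counts. What part these library measures have in the differences of single genes was not tested. Since the mitochondrial share separates the same libraries as the genotype does, the 2 cannot be told apart by a covariate.

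**Figure D1:**
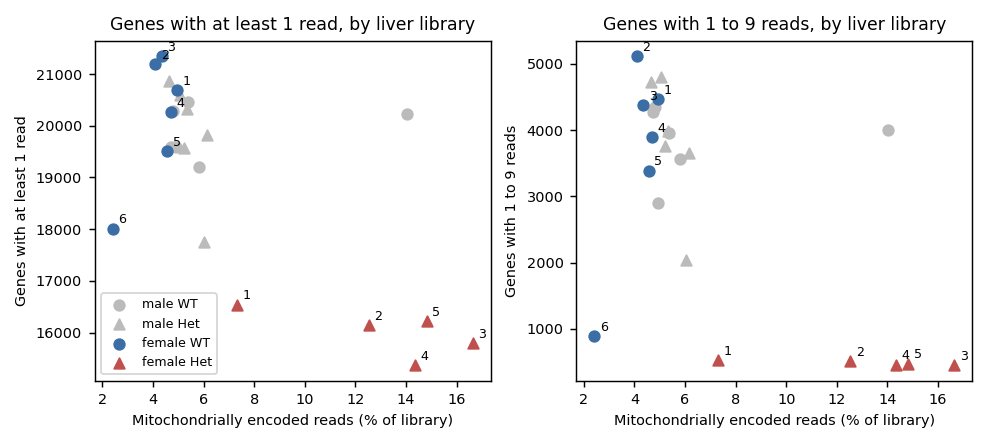
Each point is 1 liver library, with the percent of its reads on mitochondrially encoded genes on the x axis and the number of genes with at least 1 read (left) or with 1 to 9 reads (right) on the y axis. Circles are WT and triangles Het, coloured and numbered by replicate for females and grey for males. The 5 female Het livers stand at 7.31% or more and at 16538 genes or fewer, apart from the 6 female WT livers. The grey circle at 14.0% is male WT replicate 5, whose transcripts are those of muscle.

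Between the 2 genotypes, 5886 of 18241 genes (32.3%) passed an adjusted p of 0.05 in edgeR's quasi-likelihood test, 2491 (13.7%) higher and 3395 (18.6%) lower in Het livers. Without WT replicate 3, the liver with the shared library number, 5063 genes passed. The shares over all 11 livers are the background against which the counts of each gene group are read. This background covers genes of all levels. Abundant genes were lower more often than it, as given below, so it is a low measure for groups of abundant genes. All 5 Het values lay on 1 side of all 6 WT values for 3385 genes (18.6%). In 3364 genes, 1638 higher and 1726 lower, the call held with the same sign in every fit that left out 1 liver, with replicate numbers as a block and after correction for GC content and length.

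The direction of a difference moved with the composition of the gene. The median log2 fold change was -0.33 in the decile of genes with the lowest GC content and 0.52 in the decile with the highest, and it went from 0.26 in the shortest to -0.25 in the longest decile by exon length. In male livers the same medians went from -0.08 to 0.08 over GC content. Correcting every library by lowess, for GC content and for length, left medians of 0.10 to 0.25 over GC content and moved the median of all genes from -0.03 to 0.17. It made the length trend steeper, which then ran from 0.83 in the shortest to 0.01 in the longest decile. Values after the correction are thus not free of length, and short genes lie higher in them. Medians of groups after it are to be read against the 0.17 of all genes. Under the correction 3143 genes (17.2%) were higher and 2367 (13.0%) lower, so the majority of calls changed from lower to higher. Without it the majority was also higher when only genes with at least 1 CPM in 5 livers were fitted (2860 higher, 2673 lower). The same held in a fit of genes with a mean of at least 10 CPM (2449 and 2140), a setting added after the data were seen. Log2 fold changes lay higher in the fit at 1 CPM, at -1.78 against -1.86 for Atf6 and 2.01 against 1.93 for Per2. In the fit of all genes, the abundant deciles given below had more genes lower than higher. Which direction holds the majority among abundant genes thus depended on the genes fitted together. DESeq2 called 3101 higher and 3163 lower, and fits that left out 1 liver kept a lower majority. Counts after the GC and length correction are therefore given below beside the first counts of a group of genes. By mean level in the fit of all genes, 31.1%, 37.1% and 43.9% were lower in deciles 8, 9 and 10, the most abundant. In the same deciles 23.1%, 22.0% and 18.2% were higher. In the least abundant decile, at 0.287 CPM or less, 22.0% were lower and 0.219% higher, with a median log2 fold change of -0.72. How far the counts of a gene group follow from the level of its members was not tested.

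**Figure D2:**
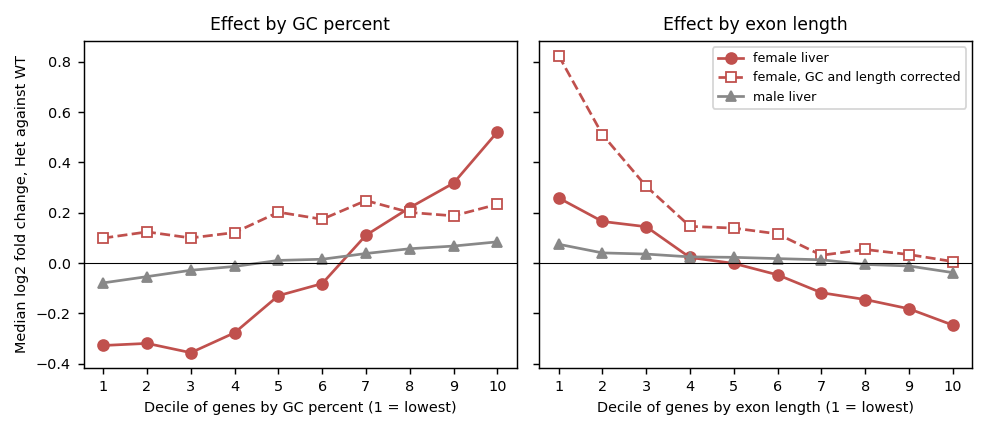
Median log2 fold change of Het against WT (y axis) over deciles of genes by GC percent (left) and exon length (right), for female liver (filled circles), female liver after the GC and length correction (open squares) and male liver without WT replicate 5 (triangles). The uncorrected female medians climb from -0.33 to 0.52 over GC content, the male ones from -0.08 to 0.08.

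Of the receptor and its pathway, Igf1r was at 4.11, 4.55 and 5.90 CPM (TMM-normalised read counts scaled to a common library size) at the lowest, median and highest WT liver, and at 7.88, 5.75, 13.0, 7.94 and 7.11 CPM in Het replicates 1 to 5. The lowest Het value lay below the highest WT value. The log2 fold change was 0.84 ± 0.28 (SE) with an adjusted p of 0.027 in edgeR's quasi-likelihood test, and without Het replicate 3 it was 0.62 with an adjusted p of 0.095. Omission of WT replicates 1, 2, 3 or 4 also ended the call. Igf1, the ligand, was at 570 to 747 CPM in WT livers and at 951, 838, 709, 895 and 591 CPM in Het livers, overlapping, with a log2 fold change of 0.30 ± 0.15 that did not pass (adjusted p = 0.15, edgeR) and one of 0.73 that did after the GC and length correction (adjusted p = 0.0017). Of 9 genes for IGFs and their carriers, 0 were higher and 3 lower (1 and 3 after the correction), and without Het replicate 1 the count of called members was 5. Igfals, which holds IGF-1 in its large serum complex, fell from 139 ± 10.1 to 90.8 ± 21.7 CPM (SD, n = 6 and n = 5, log2 fold change -0.61 ± 0.16).

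Receptors and proximal adaptors were called in both directions, 4 of 15 higher and 7 lower (6 lower and 3 higher after the correction). Irs1, the adaptor that links both receptors to PI3K, was at 9.95 CPM at the lowest WT liver, with a median of 16.8 CPM, and at 5.69, 5.06, 6.85, 2.87 and 2.31 CPM in Het livers. No Het value reached the WT range, and the log2 fold change was -1.88 ± 0.31 (adjusted p = 0.00019, edgeR). Insr, the insulin receptor, was at 166 to 258 CPM in WT livers and at 141, 138, 129, 96.0 and 132 CPM in Het livers, also without overlap (-0.81 ± 0.16, adjusted p = 0.00075, edgeR). Igf2r, which clears IGF-2 and sorts lysosomal enzymes, fell by 1.21 on the log2 scale. Irs2, the other main hepatic substrate, was at 45.5 ± 7.38 CPM in WT and 48.6 ± 17.2 CPM in Het livers and did not pass. Sh2b1, an adaptor of insulin and leptin receptors, was higher (log2 fold change 0.80 ± 0.13).

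Of 17 genes of the PI3K-Akt-FoxO branch, 10 were lower and 2 higher (7 and 1 after the correction). A higher member was Inppl1, the lipid phosphatase SHIP2 (log2 fold change 1.21 ± 0.18). Pdpk1, the kinase that activates Akt, went from 51.9 ± 12.7 to 17.4 ± 8.25 CPM (-1.58 ± 0.27). Akt2, the main Akt of liver, was lower by a smaller amount (-0.60 ± 0.14), and Foxo1 was at 55.9 ± 8.94 and 40.7 ± 15.2 CPM and did not pass (adjusted p = 0.11, edgeR). Of 33 genes of the mTORC1 branch 9 were lower and 4 higher, with a median log2 fold change of -0.11, and after the correction 5 were lower and 6 higher, with a median of 0.02. Deptor, an inhibitor of mTOR, was lower (-1.12 ± 0.17) and so was Eif4ebp2, a repressor of translation that mTORC1 switches off (435 to 218 CPM), while Rps6kb2, an S6 kinase, was higher (1.84 ± 0.21). Of 22 genes of the Ras-ERK branch 8 were lower and 2 higher, a count of 10 that was 6 without WT replicate 3, 4 or 5 and 6 after the correction. Araf, a kinase at the head of the branch, was higher by 0.62 on the log2 scale.

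Hormone receptors outside the pathway also differed. Gcgr, the glucagon receptor, was at 228, 256 and 396 CPM at the lowest, median and highest WT liver and at 645, 1006, 1275, 1194 and 1308 CPM in Het livers. All Het values exceeded the WT range (1.92 ± 0.20, adjusted p = 6.9e-06, edgeR). Ghr, the growth hormone receptor, went from 533 ± 137 to 289 ± 49.9 CPM (-0.88 ± 0.18), which did not pass after the GC and length correction (-0.46).

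All 13 mitochondrially encoded protein genes, which code for subunits of the respiratory chain, were higher in Het livers, with a median log2 fold change of 1.63 (2.57 after the correction). mt-Nd4 was at 3305, 4655 and 5045 CPM at the lowest, median and highest WT liver and at 9025, 13375, 18892, 16760 and 18739 CPM in Het livers, without overlap (1.77 ± 0.20, adjusted p = 1.3e-05, edgeR). mt-Co1, the most abundant of them, was at 7733 to 20267 CPM in WT and at 22475, 39865, 51265, 44950 and 35986 CPM in Het livers (1.20 ± 0.25, adjusted p = 0.0016, edgeR). Its lowest Het value lay just above the highest WT value. Both mitochondrially encoded rRNA genes were higher too. mt-Co2, mt-Atp6 and mt-Nd3 had mean levels of 29.3, 29.0 and 6.35 CPM in WT livers, and their counts are uncertain because nuclear copies of mitochondrial DNA can share their reads.

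The nuclear genes for the same respiratory complexes were called in both directions. Of 38 tested subunit and assembly genes of complex I, 10 were higher and 4 lower (18 and 2 after the correction), with a median of 0.22. Of 47 genes for complexes II to V, 8 were higher and 10 lower (16 and 10 after the correction), with a median of -0.01, near that of all genes. Ndufb7 of complex I was higher (49.0 ± 11.2 to 91.6 ± 14.9 CPM), and Ndufs1 of the same complex was lower (125 ± 13.4 to 81.9 ± 9.60 CPM) but not after the correction. Atp5f1b, the catalytic subunit of ATP synthase, fell by 1.23 on the log2 scale, from 1297 ± 98.2 to 554 ± 168 CPM. Mitochondrial ribosomal proteins had 9 of 77 members higher and 9 lower (16 and 2 after the correction), a smaller share in both directions than over all genes before the correction. Their median was -0.08 and turned to 0.19 after it, near the 0.17 of all genes then.

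Enzymes of the mitochondrial matrix were lower as a group. In the tricarboxylic acid cycle 14 of 20 genes (70.0%) were lower and 0 higher, with a median of -0.56 (10 and 0, median -0.43, after the correction). Sdha, the subunit of succinate dehydrogenase that holds its active site, was at 473, 609 and 646 CPM at the lowest, median and highest WT liver and at 312, 195, 231, 158 and 165 CPM in Het livers. The groups did not overlap (-1.48 ± 0.18, adjusted p = 2.2e-05, edgeR). Sdhd, its membrane anchor, fell by 1.08. Cs, citrate synthase, had the smaller change of -0.40 ± 0.13, which was lost without WT replicate 4 and after the correction.

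Mitochondrial fatty acid oxidation had 18 of 25 genes lower (72.0%) and 1 higher, with a median of -0.76 (16 lower and 2 higher, median -0.57, after the correction). Ppara, the nuclear receptor that drives fatty acid oxidation in fasting, was at 69.3, 208 and 244 CPM at the lowest, median and highest WT liver and at 52.0, 68.7, 64.8, 29.1 and 63.1 CPM in Het livers. WT replicate 6 had the 69.3 CPM, just above the highest Het liver, and the log2 fold change was -1.75 ± 0.28 (adjusted p = 0.00015, edgeR). Acadvl, which starts the breakdown of very long acyl chains, was at 137, 223 and 253 CPM at the lowest, median and highest WT liver and at 126, 90.4, 78.6, 72.6 and 71.0 CPM in Het livers. These did not overlap either (-1.27 ± 0.19, adjusted p = 9.8e-05, edgeR). Cpt1a, which controls the entry of acyl chains into mitochondria, fell by 0.62 and Hadh, a later enzyme of the cycle, by 1.14 on the log2 scale. Peroxisomal oxidation had 12 of 24 genes lower and 1 higher (10 and 2 after the correction). In it, Abcd2, the importer of very long acyl chains, fell by 1.58 on the log2 scale. For ketogenesis 5 of 7 genes were lower and 0 higher (4 and 0 after the correction).

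Lipid synthesis was lower alongside lipid oxidation. Of 26 genes for fatty acid and triglyceride synthesis, 12 were lower and 2 higher, with a median of -0.72 (14 and 3, median -0.76, after the correction). Scd1, which desaturates stearate, was at 4351, 5705 and 8761 CPM at the lowest, median and highest WT liver and at 744, 512, 446, 1389 and 2574 CPM in Het livers. Every Het value was below every WT value (-2.39 ± 0.39, adjusted p = 0.00018, edgeR). In proportion to their level, though not in CPM, Het livers differed among themselves by more than did WT livers. Fasn, fatty acid synthase, fell by 0.82 and the desaturase Fads1 by 1.33 on the log2 scale, and outside the list Acsl5, which activates fatty acids with coenzyme A, fell by 1.43. Of their regulators, Mlxipl, the carbohydrate-responsive factor ChREBP, was higher. It stood at 346, 414 and 817 CPM at the lowest, median and highest WT liver and at 789, 1244, 2152, 1656 and 1935 CPM in Het livers, where Het replicate 1 fell below WT replicate 6 (1.70 ± 0.26, adjusted p = 0.00011, edgeR). Srebf1, the insulin-responsive SREBP-1, was at 268 ± 52.6 and 289 ± 72.4 CPM and did not pass.

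In cholesterol synthesis and the other targets of SREBP-2, 17 of 25 genes (68.0%) were lower and 0 higher, with a median of -0.93 (16 lower, median -0.78, after the correction). Idi1, which supplies the isoprenoid building block, was at 11.8, 55.4 and 82.8 CPM at the lowest, median and highest WT liver and at 24.1, 6.59, 1.85, 2.87 and 4.57 CPM in Het livers. Het replicate 1 lay within the WT range and the other 4 Het livers below it (-2.72 ± 0.58, adjusted p = 0.0016, edgeR). Sc5d, a late enzyme of the pathway, fell by 1.24 on the log2 scale. Hmgcs1, an early one, was at 91.0, 195 and 245 CPM at the lowest, median and highest WT liver and at 242, 124, 111, 167 and 83.7 CPM in Het livers, overlapped and did not pass (adjusted p = 0.44, edgeR). Srebf2 itself passed (-0.59 ± 0.19, adjusted p = 0.023, edgeR) but not without WT replicate 2 or Het replicates 2 or 3. Without both WT replicate 6 and Het replicate 1, a setting added after the data were seen, 24 of the 25 genes were lower. Each of these livers stood toward the other genotype for several genes. Leaving them out therefore favours more calls, and the count is no added support. Promoters were searched for the sterol element TCACNCCAC on both strands, in the 250 bases before the gene start of 17 members with a RefSeq entry. It was in 1 of them (5.88%), Hmgcs1, and in 280 of 27025 promoters in all (1.04%).

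Bile acid genes were called in both directions, 4 of 24 higher and 8 lower, and 6 higher and 5 lower after the correction. Cyp7a1, the rate-limiting enzyme of bile acid synthesis, was lower (268 ± 153 to 104 ± 26.1 CPM, -1.36 ± 0.34) but not after the correction (-0.83), nor in limma voom with a spread for each genotype (-1.17), a test added after the data were seen. Slc10a1, which takes bile acids up from blood, fell by 1.02 on the log2 scale. Nr1h4, the bile acid receptor FXR, was higher (184 ± 34.6 to 410 ± 60.9 CPM, 1.15 ± 0.16), as was Abcg5, a sterol exporter into bile (173 ± 28.2 to 491 ± 122 CPM, 1.51 ± 0.18).

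**Figure D3:**
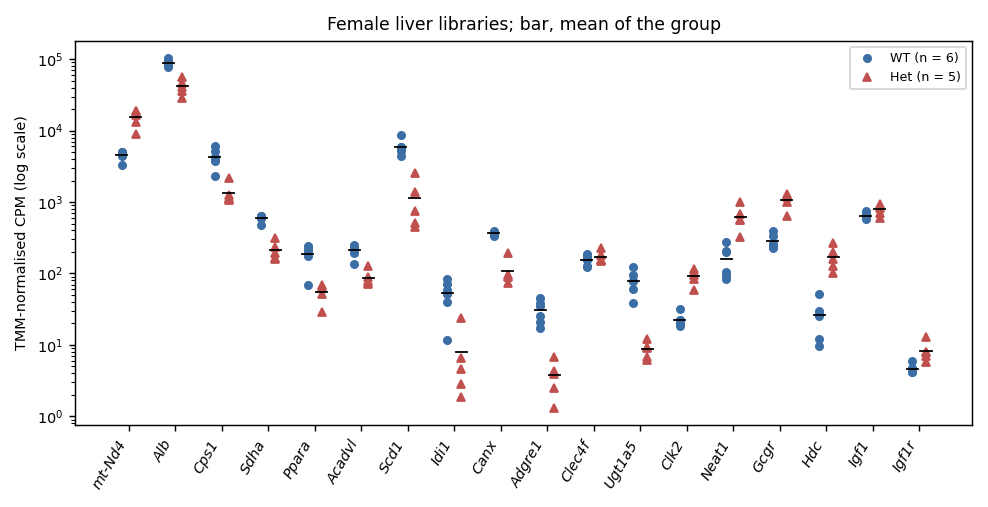
TMM-normalised CPM (y axis, log scale) of 18 genes in every female liver, WT as circles and Het as triangles, with the mean of each group as a bar. Het triangles lie wholly above the WT circles for mt-Nd4, Clk2, Neat1, Gcgr and Hdc, wholly below them for Alb, Cps1, Sdha, Ppara, Acadvl, Scd1, Canx, Adgre1 and Ugt1a5, and among them for Idi1, Clec4f, Igf1 and Igf1r.

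Glucose pathways also had more genes lower than higher. Gluconeogenesis had 6 of 12 genes lower and 1 higher (6 and 0 after the correction). Fbp1, the fructose bisphosphatase, went from 1231 ± 88.4 to 521 ± 163 CPM (-1.24 ± 0.18). Pck1 (2853 ± 873 and 4390 ± 2214 CPM) and G6pc1 (555 ± 257 and 510 ± 313 CPM), the hormone-controlled first and last steps, did not pass. Glycolysis had 10 of 22 genes lower and 2 higher (12 and 2 after the correction), with Pgam1 down by 1.59 and Pgk1 down by 1.56 on the log2 scale. In glycogen metabolism 6 of 14 genes were lower and 2 higher (6 and 3 after the correction). Pygl, which breaks glycogen down, fell by 1.13, Gbe1, which branches it, fell by 1.57, and Phkg2, a subunit of phosphorylase kinase, was higher by 1.12.

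Amino acid catabolism and the urea cycle had 31 of 60 genes lower (51.7%) and 5 higher, with a median of -0.48 (22 lower and 5 higher, median -0.24, after the correction). Cps1, which brings ammonia into the urea cycle, was at 2331, 4090 and 6072 CPM at the lowest, median and highest WT liver and at 2203, 1155, 1236, 1096 and 1080 CPM in Het livers. WT replicate 6 was the lowest WT liver and Het replicate 1 the highest Het liver, and the groups did not overlap (-1.65 ± 0.25, adjusted p = 0.00011, edgeR). Gldc, of glycine cleavage, fell by 1.86 and Ass1, of the urea cycle, by 0.79 on the log2 scale. Otc, of the urea cycle too, passed at -0.46 and stood at 0.02 after the correction, and it lost its call without WT replicate 3 or 4. Prodh2, of hydroxyproline breakdown, was higher, from 278 ± 54.9 to 790 ± 159 CPM (1.51 ± 0.18).

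Genes for folding and stress of the endoplasmic reticulum, through which secreted proteins pass, had 20 of 27 members lower (74.1%) and 0 higher, with a median of -0.84 (12 lower, median -0.38, after the correction). Canx, the lectin chaperone calnexin, was at 336, 368 and 388 CPM at the lowest, median and highest WT liver and at 192, 93.9, 90.2, 73.3 and 95.8 CPM in Het livers. The WT livers lay close together, Het replicate 1 stood apart from the other Het livers, and no values overlapped (-1.74 ± 0.21, adjusted p = 1.9e-05, edgeR). Hspa5, the chaperone BiP, was at 338 and 426 CPM at the lowest and median WT liver and at 461, 181, 198, 195 and 219 CPM in Het livers. Here Het replicate 1 lay within the WT range (-0.74 ± 0.22, adjusted p = 0.017, edgeR), and the call was lost without Het replicate 2 and after the correction (-0.32). Atf6, a sensor of unfolded protein, fell by 1.86, Dnajc3 by 1.43 and Hsp90b1 by 0.84 on the log2 scale. Calr, calreticulin, fell by 0.66 and did not pass after the correction (-0.36). Of 26 targets of Atf4, the factor of the integrated stress response, 4 were higher and 3 lower (6 and 1 after the correction). Ddit3, the factor CHOP, was higher (6.68 ± 1.62 to 14.6 ± 3.08 CPM), and Atf4 itself was at 86.4 ± 11.6 and 111 ± 14.2 CPM and did not pass.

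Several promoters of these genes hold the same letters. The stress element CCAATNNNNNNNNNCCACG, searched on both strands of the 250 bases before the gene start, was in 8 of 23 members with a RefSeq promoter (34.8%), against 33 of 27025 promoters in all (0.122%). The members were Calr, Canx, Creld2, Derl3, Dnajc3, Hsp90b1, Hspa5 and Pdia6. The promoters of the 2 genes described above, one without and one with overlap between the groups, are printed with the element in capitals, from RefSeq on GRCm38.p6, at chr11:50325674-50325923 on the minus strand for Canx and chr2:34771840-34772089 on the plus strand for Hspa5. A match is a description of the letters and not of a bound site.
Canx: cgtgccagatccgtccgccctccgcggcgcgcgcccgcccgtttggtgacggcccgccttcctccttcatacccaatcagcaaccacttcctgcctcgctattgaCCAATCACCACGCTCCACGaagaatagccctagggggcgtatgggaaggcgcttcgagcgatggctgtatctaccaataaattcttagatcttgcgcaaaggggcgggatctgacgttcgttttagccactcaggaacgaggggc
Hspa5: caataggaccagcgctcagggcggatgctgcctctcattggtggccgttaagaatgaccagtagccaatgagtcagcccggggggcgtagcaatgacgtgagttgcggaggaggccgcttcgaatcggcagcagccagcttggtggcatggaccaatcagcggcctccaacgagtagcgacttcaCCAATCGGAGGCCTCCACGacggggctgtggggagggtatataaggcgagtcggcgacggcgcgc

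Chaperones outside the endoplasmic reticulum were also mostly called lower. Heat shock proteins and their partners had 27 of 69 genes lower and 7 higher, and 14 lower and 6 higher after the correction. The mitochondrial chaperones Hspa9 and Hspd1 fell by 1.21 and 0.98 on the log2 scale. For protein breakdown, 20 of 50 proteasome genes were lower and 3 higher, a majority that was lost after the correction, with 11 lower and 10 higher. Psmd7, of the regulatory cap, fell by 0.93 on the log2 scale. Autophagy and lysosome genes had 20 of 38 lower and 4 higher (16 and 3 after the correction). Lamp1, a lysosomal membrane protein, went from 512 ± 43.0 to 166 ± 57.0 CPM (-1.63 ± 0.19), and Lipa, the lysosomal acid lipase, kept in a list of lipolysis genes, from 294 ± 50.6 to 101 ± 22.8 CPM (-1.54 ± 0.18).

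Translation genes divided by kind. Initiation and elongation factors had 29 of 67 lower and 4 higher, with a median of -0.43 (18 lower and 4 higher, median -0.11, after the correction). Eef1a1, which brings aminoacyl-tRNA to the ribosome, went from 4654 ± 203 to 1928 CPM (-1.27 ± 0.19) and Eif2s3x fell by 1.91, while Eif5b was higher by 0.98. Of 80 cytosolic ribosomal protein genes, 10 were higher and 11 lower, with a median of 0.05, close to the background in both directions, and 23 were higher and 3 lower after the correction. Rpl28 was higher (172 ± 40.5 to 353 ± 52.0 CPM), and Rps4x was lower (302 ± 21.6 to 166 ± 38.5 CPM) but not after the correction (-0.20). Processed copies of ribosomal protein genes elsewhere in the genome make such counts uncertain.

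Splicing factors, chromatin modifiers and zinc finger genes were higher more often than the background, and histone genes, with 1 of 30 higher and 4 lower (2 and 4 after the correction), were not. Of 104 RNA splicing factors 34 were higher (32.7%) and 15 lower, and after the correction 50 were higher and 6 lower. Clk2, a kinase of splicing factors, was at 18.5, 21.1 and 32.2 CPM at the lowest, median and highest WT liver and at 59.0, 83.0, 94.7, 116 and 106 CPM in Het livers. The Het livers were all higher (2.02 ± 0.19, adjusted p = 3.1e-06, edgeR). The related kinases Clk1 (95.8 ± 22.3 to 257 ± 40.9 CPM) and Clk4 (62.7 ± 7.84 to 172 ± 43.5 CPM) and the U1-associated Prpf40b (log2 fold change 2.01) were higher as well. Chromatin modifiers had 33 of 103 genes higher (32.0%) and 13 lower (39 and 8 after the correction), with Brd9, a subunit of a BAF remodelling complex, higher by 1.46. C2H2 zinc finger genes, the largest family of mouse transcription factors, had 73 of 389 higher (18.8%) and 24 lower (112 and 15 after the correction), and Zfp653 was higher by 2.49.

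Among 30 nuclear-retained RNAs and host genes of small RNAs, 17 were higher (56.7%) and 1 lower, with a median of 0.80 (19 higher and 1 lower, median 1.27, after the correction). Neat1, the RNA that builds paraspeckles, was at 83.3, 153 and 278 CPM at the lowest, median and highest WT liver and at 324, 562, 991, 562 and 681 CPM in Het livers, without overlap (1.95 ± 0.32, adjusted p = 0.00018, edgeR). Malat1, which lies beside it on the chromosome and is retained in nuclear speckles, was at 500 to 833 CPM in WT and at 473, 646, 289, 124 and 891 CPM in Het livers. These overlapped and did not pass (-0.47 ± 0.34, adjusted p = 0.32, edgeR). Meg3, from the imprinted Dlk1-Dio3 region, was higher (3.50 ± 2.03 to 34.7 ± 18.1 CPM), and so was Snhg20 (5.04 ± 3.15 to 38.0 ± 8.21 CPM). Norad, which is cytoplasmic in spite of its place on the list, was the 1 lower member (137 ± 17.1 to 46.4 ± 13.8 CPM). Whether reads were counted by strand is not given in the sources used here, so counts of such RNAs may hold reads of overlapping genes. Of 24 immediate early genes, which respond to handling and stress within minutes, 7 were higher and 0 lower, a count that was 4 without WT replicate 3 or 5 and 4 after the correction.

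**Figure D4:**
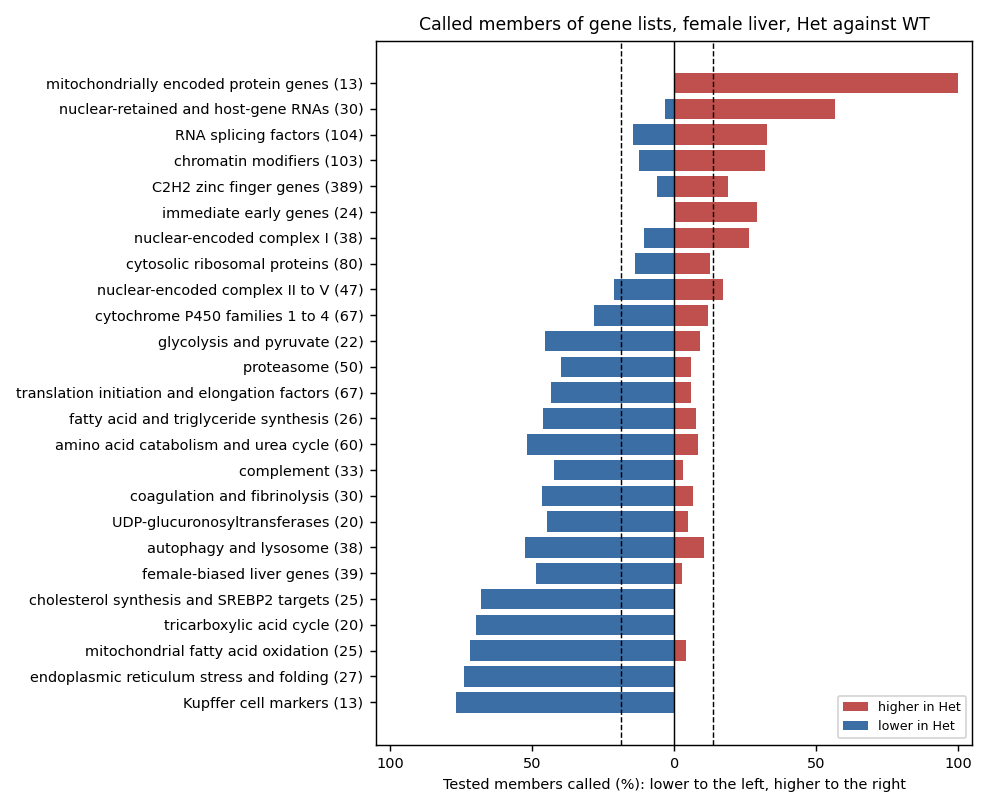
Percent of the tested members of 25 gene groups (their number in brackets) that were lower (left, blue) and higher (right, red) in Het livers, with dashed lines at the background of all genes, 18.6% lower and 13.7% higher. Kupffer cell markers, endoplasmic reticulum, fatty acid oxidation, tricarboxylic acid cycle and cholesterol genes reach furthest to the left, and mitochondrially encoded genes and nuclear-retained RNAs furthest to the right. The background covers genes of all levels, and in the most abundant decile of genes 43.9% were lower.

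Detoxifying enzymes had more members lower than higher in several families. Glutathione S-transferases, with 4 of 26 higher and 5 lower (4 and 2 after the correction), were near the background. UDP-glucuronosyltransferases, which conjugate bilirubin, steroids and drugs, had 9 of 20 genes lower and 1 higher, counts that were the same after the correction, with a median of -0.88 (-0.35 after it). Ugt1a5 was at 38.9, 78.1 and 125 CPM at the lowest, median and highest WT liver and at 9.23, 6.11, 9.03, 6.76 and 12.2 CPM in Het livers. The highest Het value was below the lowest WT value (-3.19 ± 0.28, adjusted p = 1.9e-06, edgeR), and Ugt1a1, which conjugates bilirubin, fell by 1.99 on the log2 scale. Genes of the Ugt1a cluster share their last exons, so their counts are not independent of each other. Aldo-keto reductases had 9 of 16 genes lower and 0 higher (5 and 1 after the correction), Akr1c19 among them (-1.29 ± 0.19). Sulfotransferases had 6 of 17 lower and 1 higher, counts of called genes that came to 3 without Het replicate 4 and to 4 without Het replicate 5 or WT replicates 1 or 5, and to 1, Sult5a1, after the correction. Sult5a1 was higher, from 16.2 ± 4.24 to 54.8 ± 20.3 CPM. Of 67 cytochrome P450 genes 19 were lower (28.4%) and 8 higher, and 9 lower and 12 higher after the correction. Their median went from -0.16 to 0.14, which is still below the 0.17 of all genes after the correction. Cyp2c29 fell by 1.95 and Cyp2j9 was higher by 2.47. Cyp2b10, which drugs induce through the receptor CAR, was at 19.3, 29.2 and 50.5 CPM at the lowest, median and highest WT liver and at 5.62, 4.11, 10.1, 7.27 and 10.4 CPM in Het livers, without overlap (-2.14 ± 0.30, adjusted p = 6e-05, edgeR). Close paralogs in these families can share reads.

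Plasma proteins, the main secretion of hepatocytes, were lower in part. Alb was at 78344, 90076 and 103306 CPM at the lowest, median and highest WT liver and at 57196, 40521, 36339, 46317 and 28198 CPM in Het livers, so that albumin transcripts took a smaller share of every Het library (-1.10 ± 0.21, adjusted p = 0.00063, edgeR). Complement had 14 of 33 genes lower and 1 higher (9 and 3 after the correction), with C3, its central component, at 12074 ± 2081 and 4655 ± 2260 CPM (-1.38). Without WT replicate 6 and Het replicate 1, 23 complement genes were called, a count favoured by leaving out livers that stood toward the other genotype. Coagulation and fibrinolysis had 14 of 30 lower and 2 higher (8 and 5 after the correction), and Plg, plasminogen, fell by 1.65. Serpins, the inhibitors of serine proteases, had 15 of 34 lower and 2 higher (9 and 2 after the correction), with Serpind1 and Serpina3m lower by 1.40 and 1.77. The shares lower for complement, coagulation and serpins were 42.4%, 46.7% and 44.1%. They were near the 43.9% lower among all genes of the most abundant decile. Apob, the structural protein of liver lipoproteins, went from 6506 ± 1847 to 1990 ± 577 CPM (-1.71 ± 0.24). Apoe (14396 ± 1748 and 14214 ± 4080 CPM) and Cyp2e1 (9366 ± 1345 and 6164 ± 2276 CPM) did not pass.

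Markers of the cells of liver were compared as sums over each list and gene by gene. In bulk tissue, fewer cells of a type and less RNA per cell cannot be told apart. The 12 hepatocyte markers together made up 124736 to 145226 CPM of counted reads in WT livers and 58883 to 107806 in Het livers, without overlap, and 6 of them were lower and 1 higher (5 and 2 after the correction). Hnf4a, which maintains hepatocyte identity, fell by 0.56 on the log2 scale. Of periportal markers 9 of 12 were lower and 0 higher (7 and 1 after the correction), and of pericentral markers 2 of 13 lower and 1 higher (2 and 2 after the correction, 7 calls in all without Het replicate 1), while their summed reads overlapped for both lists (exact permutation test, adjusted p = 0.861 and 0.125).

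Kupffer cell markers, of the resident macrophages, summed to 560 to 840 CPM of counted reads in WT and 384 to 553 in Het livers (exact permutation test, adjusted p = 0.0158), and 10 of 13 were lower and 0 higher (8 and 0 after the correction). Adgre1, the macrophage receptor F4/80, was at 17.0, 30.3 and 45.6 CPM at the lowest, median and highest WT liver and at 4.29, 2.48, 3.89, 6.76 and 1.32 CPM in Het livers, without overlap (-3.03 ± 0.37, adjusted p = 1.8e-05, edgeR). Clec4f, a lectin specific to these cells, was at 122, 157 and 185 CPM at the lowest, median and highest WT liver and at 153, 150, 154, 224 and 180 CPM in Het livers, overlapped and did not pass (0.16 ± 0.16, adjusted p = 0.50, edgeR). The defining markers of 1 cell type thus differed from each other, since Vsig4 (-1.91), Cd5l (-1.25) and Lyz2 (-1.92) were lower beside it. Sinusoidal endothelial markers had 2 of 13 higher and 5 lower (2 and 3 after the correction), with a median of -0.37, and their sums overlapped. The scavenger receptors Stab1 and Stab2 were higher (1.41 and 0.71), against the direction of most called members of the list. Neutrophil markers summed to 7.56 to 17.8 CPM of counted reads in WT and 12.3 to 29.7 in Het livers (adjusted p = 0.0158, exact permutation test, overlapping). Sums for stellate cells and fibroblasts, cholangiocytes, lymphocytes, erythroid cells, adipocytes, pancreatic acinar cells and mesothelium overlapped and did not pass, and skeletal muscle markers, though they differed (adjusted p = 0.00895, exact permutation test), stayed at or below 4.34 CPM of counted reads in all 11 livers.

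Genes that are known to differ between female and male liver were also compared, as lists chosen with earlier results of these data known. Of 39 female-biased genes 19 were lower (48.7%) and 1 higher, with a median of -0.99 (9 lower and 3 higher, median -0.43, after the correction). A1bg, a plasma protein made mainly in female liver, was at 44.5, 195 and 3374 CPM at the lowest, median and highest WT liver and at 65.5, 17.8, 46.4, 14.0 and 9.91 CPM in Het livers. WT replicate 1 alone had the 3374 CPM, and 2 Het livers lay above the lowest WT liver (-4.51 ± 1.01, adjusted p = 0.0024, edgeR). In limma voom with a spread for each genotype its value was -3.21 and did not pass. Hao2, an oxidase of hydroxy acids, went from 40.5 ± 34.5 to 4.23 ± 2.21 CPM (-3.25 ± 0.51). Cux2, a female-biased transcription factor, was the 1 higher member (114 ± 39.6 to 255 ± 107 CPM). Of 34 male-biased genes 5 were higher and 1 lower (7 and 1 after the correction), near the background in the higher direction.

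The genes with the largest differences among protein-coding genes of at least 10 CPM, called with 1 sign in every setting named above, were mostly in none of these groups. Echdc2, an enoyl-CoA hydratase family member, was at 128, 134 and 256 CPM at the lowest, median and highest WT liver and at 572, 1022, 1047, 1258 and 1142 CPM in Het livers (2.69 ± 0.23, adjusted p = 1.6e-06, edgeR). Fam193b, whose function in liver is little known, was at 63.3, 70.8 and 172 CPM at the lowest, median and highest WT liver and at 379, 538, 725, 756 and 698 CPM in Het livers (2.82 ± 0.27, adjusted p = 3.3e-06, edgeR). Hdc, which makes histamine, was at 9.58, 27.4 and 51.8 CPM at the lowest, median and highest WT liver and at 271, 127, 100, 201 and 161 CPM in Het livers (2.71 ± 0.36, adjusted p = 3.6e-05, edgeR). For these 3 genes the lowest Het liver was above the highest WT liver. Lgals4 (2.77), a galectin, and Adrb3 (2.61), a beta-adrenergic receptor, were higher without overlap, and Cyp46a1 (2.61) and Ptgds (2.63) with overlap. The largest negative values beside those already given were of Raet1d (-2.81), Pdpr (-2.79) and F8 (-2.60), without overlap, and Slc10a5 (-2.50), with overlap.

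With the mitochondrial share as a covariate 564 genes (3.09%) passed, and 501 of them were also called with the same sign without it, 306 higher and 195 lower. Share and genotype leave little independent spread in these 11 livers, and a gene that did not pass there is not shown to be without a difference. The 5 smallest p values of that fit belonged to Hdc, Zpr1, Tenm3, Plin4 and Gadd45g, whose log2 fold changes in it were 4.89, 3.94, -4.25, 4.80 and 6.59, each with an adjusted p at or below 0.0025 (edgeR). Without the covariate they were 2.71, 1.69, -1.91, 1.57 and 2.20, and that of Gadd45g was 1.03 and not called without Het replicate 1.

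The same comparison in the livers of males, 5 WT without the library of muscle-like transcripts and 6 Het, called 0 of 18241 genes (0.0%) in edgeR's quasi-likelihood test, with 744 at an unadjusted p under 0.05. All 6 male WT livers together also gave 0 calls and 1021 at an unadjusted p under 0.05. The difference of the genotype effect between the sexes, tested as an interaction, passed for 4655 genes (25.5%), 1729 with a higher and 2926 with a lower log2 fold change in females than in males. For Scd1 the female effect minus the male effect was -2.48 on the log2 scale, for Sdha -1.52, for Canx -1.63, for Adgre1 -3.87 and for mt-Nd4 1.74, with adjusted p values between 9.69e-06 and 0.000295 in edgeR's test. Irs1 differed by -1.61 and Gcgr by 1.96, whereas the differences of Igf1r (0.43), Igf1 (0.43), Hspa5 (-0.71) and Cyp2b10 (-2.12) did not pass. Across lists, the male medians stayed between -0.13 and 0.13 for all groups in the plot of list medians other than Kupffer cell markers, at 0.48.

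**Figure D5:**
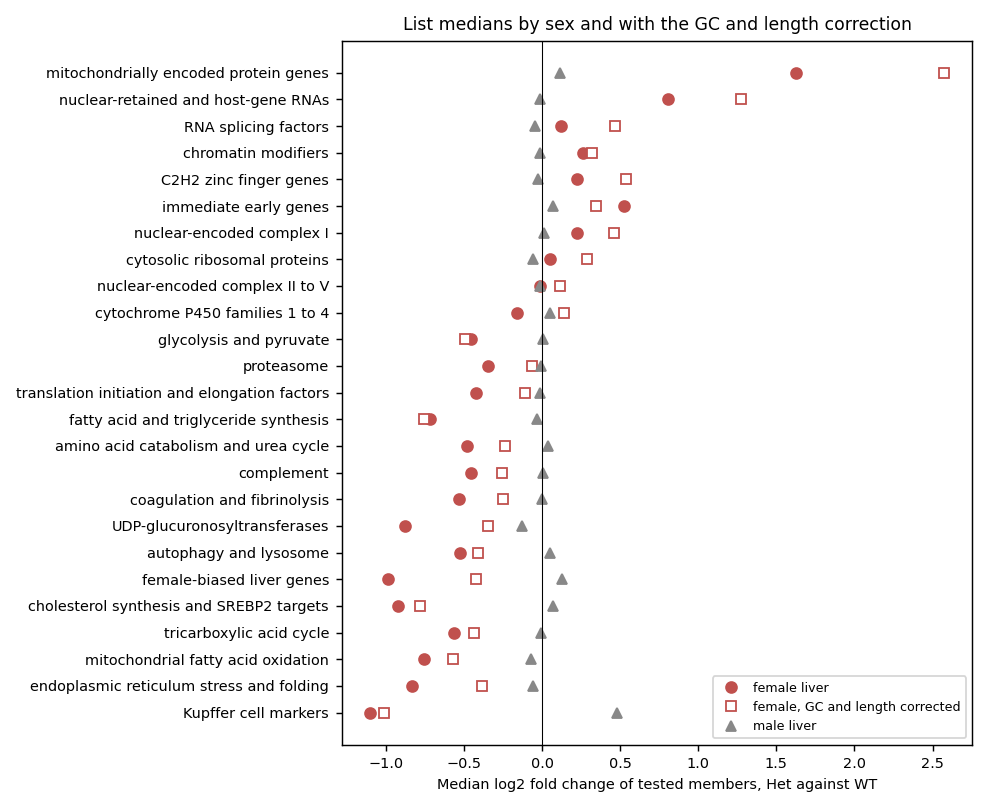
Median log2 fold change of Het against WT (x axis) over the tested members of 25 gene groups (y axis), for female liver (filled circles), female liver after the GC and length correction (open squares) and male liver without WT replicate 5 (triangles). Female medians run from -1.10 for Kupffer cell markers to 1.63 for mitochondrially encoded protein genes. The correction changes the sign of the median for complexes II to V and cytochrome P450 genes, both of which stay below the 0.17 of all genes after it.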

How the data were processed

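Liver RNA was extracted with a PureLink kit, made into polyA libraries and sequenced. The authors mapped reads to GRCm39 with STAR 2.7.11b and counted them per gene with featureCounts 2.0.6. The deposited values are these raw counts. Annotation, strand setting and the treatment of reads with several matches are not given in the sources used here. The labels give tissue, sex and genotype. Total counts per female liver were 26290519 to 56312866.

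Genes that reached 10 reads in 20% or more of the 23 liver libraries were TMM-normalised and tested with edgeR's quasi-likelihood test (edgeR 4.0.16, R 4.3.3) on the 11 female livers, with Benjamini-Hochberg adjustment over all 18241 genes and a threshold of 0.05. SE is the log2 fold change divided by the square root of F. Sex by genotype was fitted as an interaction with male livers, without male WT replicate 5. Library measures were compared with exact permutation tests. Marker sums are CPM of all counted reads, without TMM. The GC and length correction was a lowess offset with a span of 0.3, for the 99.46% of genes with both values. Alternatives used limma 3.58.1, DESeq2 1.42.0 and the settings named with the results. Tests were checked on simulated counts. The first limit set there for recovering smaller changes was not met and was replaced by one on error control.

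Members and gene lists were chosen with earlier results of these data known. Families defined by name patterns hold protein-coding or mitochondrial genes. No gene list was tested as a set. Genes named are Igf1r and Igf1, defining members and up to 4 called members with the smallest p of each list, the 10 largest changes in each direction among protein-coding genes with a mean of at least 10 CPM called in every fit, the 10 most abundant protein-coding genes, and the 5 smallest p under the mitochondrial covariate. Of these, the text gives those that show each group, and some are not reported here. Promoters are RefSeq's on GRCm38.p6, a different build from the counts.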

Additional observations from a re-analysis of the deposited data

Results flagged for a closer look

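Single livers stood far from the others of their group by Dixon's criterion, which chance meets in about 1 of 20 groups. WT replicate 6 did so most often, with a mitochondrial share of 2.41% (2.21% without rRNA), a nuclear protein-coding share of 96.0% and a long noncoding share of 0.873%. The same liver was apart for mt-Co1 at 7733 CPM, mt-Nd4 at 3305 CPM, Clk2 at 32.2 CPM, Echdc2 at 256 CPM, Mlxipl at 817 CPM, Sdha at 473 CPM and Fam193b at 172 CPM. In the cases of Clk2, Echdc2, Mlxipl, Sdha and Fam193b its value lay on the side of the Het livers, and in those of mt-Co1 and mt-Nd4 on the far side. Het replicate 1 was apart for Cps1 at 2203 CPM, Hspa5 at 461 CPM, Canx at 192 CPM and Idi1 at 24.1 CPM, each on the side of the WT livers. Without both livers 6935 genes were called, against 5886 with them. Since each stood toward the other genotype for several genes, such a rise is no added support.

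Other single livers were apart for 1 or 2 measures. WT replicate 1 had A1bg at 3374 CPM, lymphocyte markers at 158 and neutrophil markers at 17.8 CPM of counted reads. WT replicate 3 had sinusoidal endothelial markers at 729 CPM of counted reads, WT replicate 4 had Scd1 at 8761 CPM and WT replicate 5 had Igf1r at 5.90 CPM. Het replicate 4 had lymphocyte markers at 562 and skeletal muscle markers at 4.34 CPM of counted reads, and Insr at 96.0 CPM.

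The genotype effect differed between female and male liver for 4655 genes in edgeR's interaction test. As the female minus the male log2 fold change, it was lower in females for Irs1 (-1.61), Insr (-0.68), Alb (-0.99), Cps1 (-1.60), Ppara (-1.83), Acadvl (-1.25), Sdha (-1.52), Scd1 (-2.48), Idi1 (-3.07), Canx (-1.63), Adgre1 (-3.87), Ugt1a5 (-3.60) and A1bg (-7.56). It was higher in females for mt-Co1 (1.07), mt-Nd4 (1.74), Gcgr (1.96), Mlxipl (1.70), Clk2 (2.01), Neat1 (1.67), Hdc (3.08), Echdc2 (2.68) and Fam193b (2.76). For A1bg and Adgre1 the difference was well beyond the female value alone. Male values of the other sign, though not called, are thus part of it. A1bg was also far higher in WT replicate 1 than in the other WT livers.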

How the results depend on the processing

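The number of called genes stayed within 1.5 times the 5886 in all settings but a pair. A test against a fold of 1.5 called 2317, and the mitochondrial share as a covariate called 564. DESeq2 called 6264, DESeq2-type size factors 5842, and omission of single livers 5063 to 6714. The interaction gave 3192 calls with all 6 male WT livers and 4110 to 5698 without single livers. Replicate numbers did not pair the livers (correlations of -0.034 to 0.021 between same-numbered deviations, none best with its own number), and with the number as a replicate block 5111 genes were called. Settings added after the data were seen called 6935 (without WT replicate 6 and Het replicate 1), 4589 of 8304 (mean of at least 10 CPM) and 5426 (limma voom with a spread for each genotype). Single livers moved the difference in mitochondrial share between 8.08 and 10.4 percentage points, and the difference in genes detected per library in female liver between -4584.6 and -3917.4.

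Signs turned under the covariate for Hspa5 (0.12), Fos (-1.43) and mt-Co1 (-0.62), and after the GC and length correction for Otc (0.0197). Reads of mt-Co1 are part of the mitochondrial share itself, so its value under that covariate is not a separate result. Of 52 lists followed, medians that turned under the covariate were those of hormones and binding proteins (0.48), gluconeogenesis (0.0816), complexes II to V (0.75), mitochondrial ribosomal proteins (0.46), proteasome (0.0777), circadian genes (-0.57), zinc fingers (-0.0881), chromatin modifiers (-0.13), coagulation (0.0141), male-biased genes (-0.000352), interferon response (0.43), collagens (-0.12), hepatocyte markers (0.26) and, within the spread between livers, pericentral markers (0.0463). Those that turned after the correction were mTORC1 (0.0161), mitochondrial ribosomal proteins (0.19), Nrf2 targets (0.22), cytochrome P450 (0.14), interferon response (0.26) and, within that spread, complexes II to V (0.11). The median of all genes was itself -0.10 under the covariate and 0.17 after the correction, so a turned sign is not always a turn against all genes. The cause was not tested. Among genes named in the text, 137 kept direction and side of the threshold after the correction, where 7 lost their call, and 52 did under the covariate, where 90 lost it. Genes with few reads are measured least precisely, yet each counts once in these numbers. In the least abundant decile 22.0% were lower and 0.219% higher.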

Other observations

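Gene groups not described above moved in part. Circadian clock genes had 5 of 23 higher and 5 lower, and 5 and 6 after the GC and length correction. Per2, a repressor of the clock, went from 40.9 to 156 CPM (log2 fold change 1.93, adjusted p = 1.4e-05 in edgeR's quasi-likelihood test), and Clock, one of its activators, from 32.7 to 13.3 CPM (-1.30, adjusted p = 0.00053 in the same test), while Bmal1 (-0.38) did not pass. The study's methods describe collection of livers for protein blots in small groups on consecutive days, at a single time of day. They do not say whether the sequenced livers were among those blotted, and the labels give no day.

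Among interferon response genes 8 of 39 were higher and 6 lower, and 11 and 1 after the GC and length correction. Stat2, which carries the signal of type I interferon to the nucleus, was higher (89.7 to 268 CPM, log2 fold change 1.58). Collagens had 8 of 32 higher and 2 lower (8 and 4 after the correction), with Col27a1 higher by 2.57. Nrf2 targets, the genes of the antioxidant response, had 5 of 26 higher and 3 lower (5 and 1 after the correction), although Nfe2l2, which codes for Nrf2 itself, was higher (107 to 279 CPM, 1.38). Cation-chloride cotransporters had 4 of 8 genes higher and 0 lower, before and after the correction, and Slc12a7 went from 158 to 577 CPM (1.87).

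The spread between livers also differed by genotype. The median dispersion per gene, over genes with a mean of at least 10 CPM, was 0.0332 among WT and 0.0863 among Het livers, as values with no test.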
